A study of Mus musculus with 6 samples.

Results

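The interferon-inducible GTPases described here are 10 genes, Gvin1, Gbp2, Gbp3, Gbp4, Gbp7, Tgtp2, Irgm1, Irgm2, Igtp and Iigp1, taken by symbol from the 23725 genes of the deposited tables. All 10 symbols were found. RNA was measured by sequencing in regulatory T cells (Tregs, a CD4 T cell type that curbs immunity) of lymph nodes, with 500 cells behind each library. The 3 MOG KO libraries came from C57Bl/6 mice lacking myelin oligodendrocyte glycoprotein (MOG), a myelin protein, in the whole animal, and the 3 WT libraries from C57Bl/6 mice that carry it. Mice of both genotypes had been immunised with MOG, so neither group is unimmunised. The labels do not say whether a replicate is 1 mouse or a pool, nor the age or sex of the mice, so any spread or p-value reflects only these samples and may be partly technical.

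Interferons bind their receptors and, through JAK kinases and STAT proteins, switch on genes whose promoters hold an interferon-stimulated response element or a gamma-activated site. Among the strongest targets in mouse cells are GTPases of 3 families. The guanylate-binding proteins and the smaller immunity-related GTPases gather on the membranes of vacuoles that hold intracellular microbes and help to break them. Irgm1, Irgm2 and Igtp belong to a regulatory branch that keeps the other immunity-related GTPases, such as Tgtp2 and Iigp1, off the cell's own membranes. Gvin1 encodes a very large interferon-inducible GTPase whose function is less well known.

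The promoters show what these genes share independently of their counts. They are printed because matches to both motifs stand next to each other in those of Tgtp2, Irgm2 and Igtp, with the others beside them. RefSeq promoter windows on GRCm38.p6, which run from 250 bases before a gene's start to 50 after it, were matched for 7 of the 10 genes. Gvin1, Gbp4 and Iigp1 have no entry. The core of the response element was searched as GAAA, any 2 bases and GAAA again, and the gamma-activated site as TTC, any 3 bases and GAA, each on both strands. Below are the 120 bases before the start site, 5′ to 3′ on the gene's strand, with every match to either motif in capitals.

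Gbp2 (chr3:142620543-142620662, + strand): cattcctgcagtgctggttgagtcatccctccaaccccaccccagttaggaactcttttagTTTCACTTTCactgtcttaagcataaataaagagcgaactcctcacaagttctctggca

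Gbp3 (chr3:142559924-142560043, + strand): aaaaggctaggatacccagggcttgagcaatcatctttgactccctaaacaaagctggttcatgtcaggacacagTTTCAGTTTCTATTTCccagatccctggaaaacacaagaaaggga

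Gbp7 (chr3:142530216-142530335, + strand): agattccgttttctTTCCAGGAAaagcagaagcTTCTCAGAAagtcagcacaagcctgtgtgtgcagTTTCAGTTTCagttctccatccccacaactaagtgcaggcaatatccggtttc

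Tgtp2 (chr11:49064213-49064332, - strand): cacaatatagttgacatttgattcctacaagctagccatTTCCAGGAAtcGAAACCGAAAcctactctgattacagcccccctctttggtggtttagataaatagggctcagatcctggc

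Irgm1 (chr11:48871421-48871540, - strand): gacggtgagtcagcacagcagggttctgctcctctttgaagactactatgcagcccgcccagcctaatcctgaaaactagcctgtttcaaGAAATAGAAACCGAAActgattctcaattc

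Irgm2 (chr11:58214857-58214976, + strand): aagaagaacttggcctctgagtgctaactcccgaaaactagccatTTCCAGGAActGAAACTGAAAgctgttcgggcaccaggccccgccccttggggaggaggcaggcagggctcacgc

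Igtp (chr11:58199436-58199555, + strand): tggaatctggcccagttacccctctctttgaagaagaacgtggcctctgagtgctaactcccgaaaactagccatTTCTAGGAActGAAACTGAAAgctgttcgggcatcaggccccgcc

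All 7 genes had a match to the response element core, against 3.44% of all 32851 promoter windows. The matches began between 70 and 24 bases before the start site in Tgtp2 (-70), Irgm2 (-64), Gbp2 (-59), Gbp7 (-53), Gbp3 (-45 and -39), Igtp (-34) and Irgm1 (-30 and -24), with the paired matches of Gbp3 and of Irgm1 overlapping each other. Gbp3 has another window from a second start site, and that one held neither motif. For Irgm2, alone of the 7, the bases after the start site were not matched to an annotated transcript. Its distances are therefore less certain. The gamma-activated site was matched in 4 of the 7 genes, Gbp7, Tgtp2, Irgm2 and Igtp, against 8.3% of all windows. Both motifs stood in the windows of these 4 genes and in 0.454% of all windows. A match is a description of letters and does not show that a factor binds there.

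In Tgtp2, Irgm2 and Igtp the gamma-activated site was followed, after 2 bases, by the response element core. This spaced pair, searched on both strands after it had been seen in these sequences, was found in 5 of the 32851 windows (0.0152%). The 5 windows belong to Igtp, Irgm2, Tgtp2, Tgtp1 and Gm12185. These promoters are not independent of each other, since the windows of Igtp and Irgm2 share an identical run of 61 bases and those of Tgtp2 and Tgtp1 one of 27. The longest run shared by Tgtp2 and Irgm2 was 17 bases, and by Tgtp2 and Igtp 11 bases. Among 9 further interferon-inducible GTPases with a window, 6 held the response element core and 3 held both motifs.

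**Figure D1:**
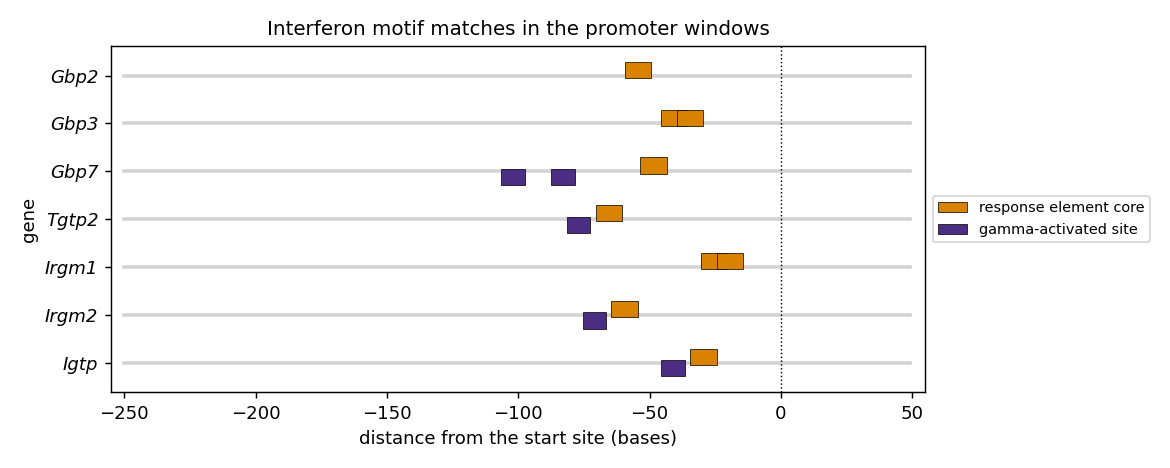
Motif matches in the promoter windows of 7 interferon-inducible GTPases, by distance from the start site in bases (horizontal axis, from 250 before to 50 after). Orange boxes are response element core matches and purple boxes gamma-activated site matches. All 7 genes hold an orange box within 70 bases of the start site, and in Tgtp2, Irgm2 and Igtp a purple box stands 2 bases before it.

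The genes lie in a few clusters on GRCm38 and are all protein-coding. Gbp7 (Entrez 229900, chromosome 3, 142530336 to 142550151), Gbp3 (55932, 142560016 to 142573213) and Gbp2 (14469, 142620663 to 142638008) are neighbours on the plus strand. Gbp4 (17472) lies on chromosome 5 from 105115767 to 105139586, and Gvin1 (74558) on chromosome 7 from 106156535 to 106215340. Chromosome 11 holds Irgm1 (15944, 48865245 to 48871420) and Tgtp2 (100039796, 49057196 to 49064212) on the minus strand, and Igtp (16145, 58199556 to 58207592) and Irgm2 (54396, 58214977 to 58222783) on the plus strand. Iigp1 (60440) lies on chromosome 18 from 60373616 to 60392634.

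Copies of these genes limit what some of the counts can say. Of all stretches of 100 bases, the read length, in the GENCODE transcripts of Gvin1, 97.8% also occur in transcripts of another gene, 96.7% in those of Gm4070. For Tgtp2 the share was 76.8%, all of it with Tgtp1. It was 10% for Gbp7, mostly with the pseudogene Gm43802, 5.16% for Igtp and 3.01% for Irgm2, each with the other, 1.64% for Gbp4 and 0.694% for Gbp3. Gbp2, Irgm1 and Iigp1 shared no stretch. How reads that match several places were counted is not given in the sources used here, so values of Gvin1 and Tgtp2 are uncertain as values of single genes. The deposited counts list no gene under the symbol Gm4070, and the Gvin1 values may hold its reads.

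The libraries held 2717969 to 4472549 gene counts. Values below are the authors' reads-per-million (RPM), in the order of replicates 1, 2 and 3. With 0 counts in a library, up to 3 remain possible, worth 0.671 to 1.1 RPM. This limit covers counting error only, since molecules were copied by PCR and carry no identifiers. Present means 10 RPM or more. Few genes were read evenly, with 704 of 7909 genes present anywhere (8.9%) present in all 6 libraries. In WT replicate 3, 2701 genes were present, and elsewhere 3265 to 4440. Foxp3, the defining factor of Tregs, had 8.22 RPM there and 326 to 690 RPM elsewhere. Ctla4 (74.3 RPM, against 450 to 612 elsewhere), Cd4 (170 RPM, against 419 to 722) and Cd3g (1.42 RPM, against 177 to 272) were also lowest in WT replicate 3. The 4 T cell markers Cd3d, Cd3e, Cd3g and Cd4 summed to 574 RPM there, with 1361 to 1483 RPM in MOG KO and 1435 and 1059.6 RPM in the other WT libraries. Cd3d and Cd3e and the Treg markers Il2ra, Ikzf2 and Tnfrsf18 were present in all 6 libraries, and none of these 5 was lowest in WT replicate 3.

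The 10 genes were mostly either well read or near absent. Of their 60 values, 48 (80%) were at 10 RPM or more, where 44.9% of the values of all 7909 genes were. Nothing is read from this difference, since the 10 genes were chosen with their values known. The lowest of the 48 was 17.7 RPM and the highest of the other 12 was 3.4 RPM, so no value lay near the threshold. Values between 3 and 10 RPM were also few over all 7909 genes (3.09%). MOG KO replicates 1, 2 and 3 had 10, 9 and 8 of the 10 genes present. WT replicates 1, 2 and 3 had 9, 8 and 4. Gvin1, Gbp4 and Gbp7 were present in all 6 libraries, Gbp3, Tgtp2, Irgm2 and Igtp in 5, Gbp2 and Iigp1 in 4 and Irgm1 in 2. In bulk samples, fewer cells with a transcript and less of it per cell cannot be told apart.

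**Figure D2:**
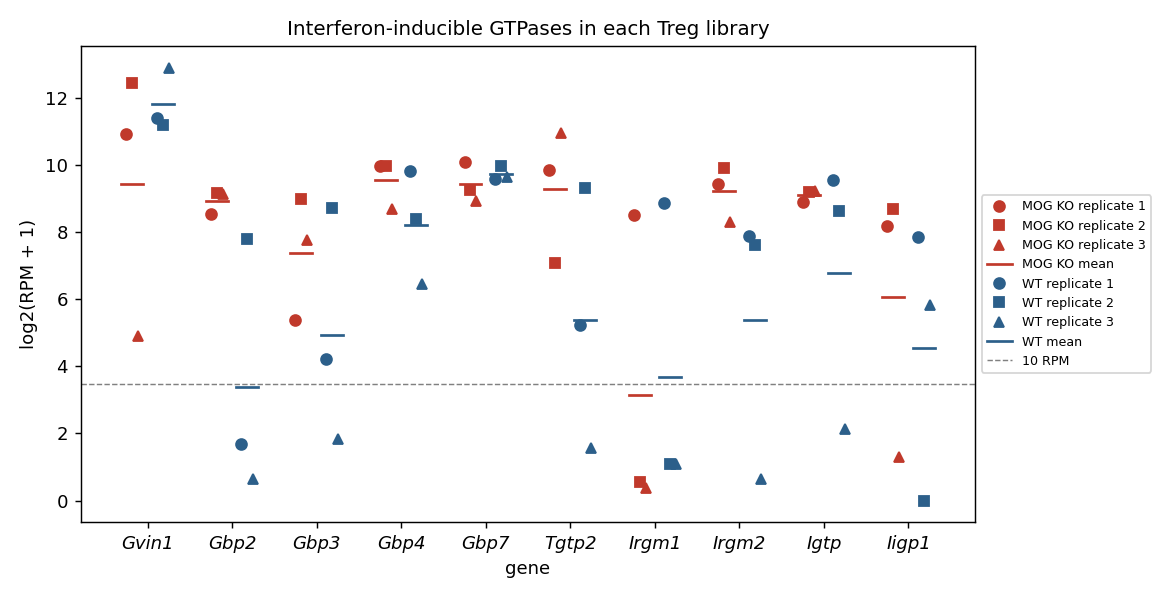
RNA of the 10 genes in each library, as log2(RPM + 1) (vertical axis), with MOG KO in red left of WT in blue. Symbols are replicates, short lines are means and the dashed line is 10 RPM. Gbp7 varies least, while WT replicate 3 (blue triangles) lies under the line for Gbp2, Gbp3, Tgtp2, Irgm1, Irgm2 and Igtp and is highest for Gvin1.

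The 10 genes were selected on values already known, their counts and RPM by genotype in these 6 libraries. Their genotype comparison is therefore given as values and fold changes, with no p-value and no claim from it. Each log2 fold change, MOG KO over WT, comes from edgeR and has its standard error (SE, n = 3 per group). The edgeR test on the whole table gave 0 of 4088 genes past an adjusted p of 0.05 (0%, with 209 genes at an unadjusted p under 0.05), and 0 of the 9 genes among these 10 that passed the filter on low counts. DESeq2, which put 745 of the 4648 genes it could adjust (16%) past the threshold, called 0 of the 9 of these 10 genes that it adjusted. limma-voom called 0 genes. The gene that did not pass the filter was Irgm1.

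Gvin1 collected the most reads of the 10 genes in 5 of the 6 libraries. It had 1927, 5570.3 and 29 RPM in MOG KO and 2673, 2323 and 7650.1 RPM in WT. The single low library was MOG KO replicate 3, and the ranges overlapped. By rank among all genes Gvin1 stood 12th, 5th and 2979th in MOG KO, against 7th, 8th and 3rd in WT. Its log2 fold change was -0.86 ± 1.3, and it ranged with 1 library left out from -2.31 without MOG KO replicate 2 to 0.05 without WT replicate 3. It was -0.28 without MOG KO replicate 3.

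Gbp7 was the most evenly read guanylate-binding protein gene. It had 1087, 609 and 488 RPM in MOG KO and 772, 995 and 797 RPM in WT, and the WT values lay within the MOG KO range. Its log2 fold change was -0.3 ± 0.43, with an SE well below the median of 2.42 over all genes tested. Gbp4 had 1002, 998 and 414 RPM in MOG KO and 904, 332 and 85.9 RPM in WT. Its lowest value was in WT replicate 3, the groups overlapped, and the log2 fold change was 0.85 ± 0.84. It was 1.93 without WT replicate 1 and 0.41 without WT replicate 3.

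Gbp2, one of the guanylate-binding proteins that target vacuoles of pathogens, had 369, 570 and 559 RPM in MOG KO and 2.21, 219 and 0.567 RPM in WT. All MOG KO libraries lay above all WT libraries, and the gene was near absent in WT replicates 1 and 3. The log2 fold change was 2.79 ± 2.14, and it was 8.43 without WT replicate 2, the only WT library with the gene present. Gbp3, its neighbour, had 40.4, 510 and 216 RPM in MOG KO and 17.7, 417 and 2.55 RPM in WT. The groups overlapped. Its log2 fold change of 0.86 ± 2.11 was -0.09 without MOG KO replicate 2 and 4.65 without WT replicate 2.

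Among the regulatory immunity-related GTPases, Irgm2 had 690, 966 and 314 RPM in MOG KO and 237, 195 and 0.567 RPM in WT. All MOG KO libraries were above all WT libraries, with WT replicate 3 near 0. The log2 fold change was 2.19 ± 1.62, with 1.64 without WT replicate 3 and 2.76 without WT replicate 1. Summed with Igtp, with which it shares some sequence, it was 1.2.

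Igtp, which lies next to Irgm2, had 472, 581 and 602 RPM in MOG KO and 756, 393 and 3.4 RPM in WT. Its highest and its lowest value were both in WT, so the groups overlapped. The log2 fold change was 0.53 ± 1.37, with 1.49 without WT replicate 1 and -0.035 without WT replicate 3. Irgm1, the third gene of this branch, was read in 1 library of each genotype, with 366, 0.459 and 0.29 RPM in MOG KO and 468, 1.12 and 1.13 RPM in WT. The 2 libraries that held it were replicate 1 of each genotype, and none lay between them and the near-absent rest.

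Tgtp2, an effector immunity-related GTPase, had 915, 135 and 1999 RPM in MOG KO and 36.4, 633 and 1.98 RPM in WT. The groups overlapped through MOG KO replicate 2 and WT replicate 2. The log2 fold change was 2.22 ± 1.71, and 5.71 without WT replicate 2. It was 1.27 without MOG KO replicate 3 and again 2.22 after the counts of Tgtp1 had been added. Since 76.8% of the 100-base stretches of Tgtp2 also occur in Tgtp1, both genes may hold the same reads. The summed value is therefore no independent check.

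Tgtp1, the near-identical copy, followed Tgtp2 closely, and the part of shared reads in this was not tested. It had 782, 110 and 1542 RPM in MOG KO and 14.7, 511 and 1.7 RPM in WT. Tgtp2 took 53.9%, 55.2% and 56.5% of the counts of the pair in MOG KO and 71.2%, 55.3% and 53.8% in WT. The pair held 139 counts in WT replicate 1, the library with the deviating share, and 13 in WT replicate 3.

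Iigp1, the other effector, had 290, 411 and 1.45 RPM in MOG KO and 230, 0 and 55.3 RPM in WT. It was near 0 in 1 library of each genotype, MOG KO replicate 3 and WT replicate 2, and the groups overlapped. Its log2 fold change was 1.24 ± 2.64. It was 2.95 without WT replicate 1, 0.5 without MOG KO replicate 2 and 0.71 without WT replicate 2. It was also, beside Gvin1, Gbp4 and Gbp7, 1 of the 4 genes present in WT replicate 3.

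Of the 10 genes, Gbp2 and Irgm2 had all MOG KO libraries above all WT libraries, and none had the reverse. Over the 4088 genes tested, 5.97% had the first order and 4.57% the second. Nothing is read from this count, since the genes were chosen with these values in view.

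**Figure D3:**
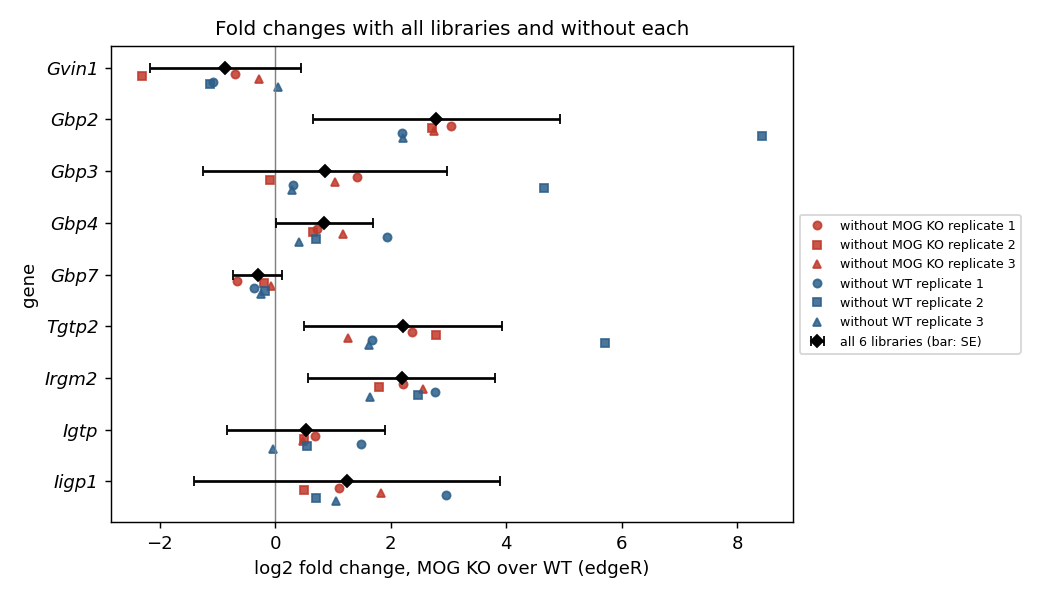
Log2 fold changes, MOG KO over WT, of the 9 genes that passed the filter (horizontal axis). Black diamonds with SE bars use all 6 libraries, and smaller symbols leave out 1 library each. Gbp7 stays between -0.65 and -0.08, while Gbp2 reaches 8.43 and Tgtp2 5.71 without WT replicate 2.

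Per kilobase of exon, with lengths from GENCODE, the level of Gvin1 no longer stood apart. The median over the 6 libraries was 277 RPM per kb for Gvin1, 260 for Igtp, 140 for Gbp7, 131 for Tgtp2, 117 for Gbp2, 88 for Gbp4, 74.7 for Irgm2, 39.2 for Gbp3, 24.5 for Iigp1 and 0.194 for Irgm1. All 9 neighbouring pairs in this order had ranges that overlapped. Per kb, Igtp averaged 273 ± 34.7 in MOG KO and 190 ± 186 in WT, and Gbp7 averaged 130 ± 56.4 in MOG KO and 152 ± 21.7 in WT (SD, n = 3 each).

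Summed over the 10 genes, the libraries held 7159, 10351 and 4624 RPM in MOG KO and 6095, 5506 and 8599 RPM in WT, which is 0.462% to 1.04% of all counts in MOG KO and 0.551% to 0.86% in WT. Gvin1 made up 26.9%, 53.8% and 0.627% of this sum in MOG KO and 43.9%, 42.2% and 89% in WT. Without Gvin1 the sum was 5232, 4781 and 4595 RPM in MOG KO and 3422, 3184 and 949 RPM in WT. Without Gvin1 and Tgtp2, both with near-identical copies, it was 4317, 4646 and 2595 RPM in MOG KO and 3386, 2551 and 947 RPM in WT, and the groups then overlapped. These sums without single genes were chosen after the values had been seen.

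By family, WT replicate 3 had the lowest sum in both. The 4 guanylate-binding protein genes summed to 2499, 2687 and 1677 RPM in MOG KO and 1696, 1962 and 886 RPM in WT. The 5 immunity-related GTPase genes summed to 2733, 2094 and 2918 RPM in MOG KO and 1726, 1222 and 62.4 RPM in WT. Of the 62.4 RPM in WT replicate 3, 55.3 RPM were Iigp1, and the same library held the largest Gvin1 value of all. This is the library in which Foxp3 was at 8.22 RPM and Cd3g at 1.42 RPM and fewest genes were present, and the part of this in the GTPase values was not tested.

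The genes closest in pattern to the summed RPM of the 10, by the root mean square difference of centred log2(RPM + 1) values over 6 libraries among 7103 other genes, were Mbd2 (0.17), Ezr (0.186), Zyx (0.188), Cope (0.19) and Sept9 (0.204). Mbd2, a reader of methylated DNA, had 279, 354 and 134 RPM in MOG KO and 235, 189 and 359 RPM in WT, and Ezr, a linker of membrane and actin, had 371, 568 and 292 RPM in MOG KO and 333, 256 and 594 RPM in WT. The sum does not stand for its single genes, since Gvin1 made up between 0.627% and 89% of it. Mbd2 and Ezr were highest in WT replicate 3, where Gbp2, Gbp3, Tgtp2, Irgm1, Irgm2 and Igtp were not present. Among the 10 genes, the closest pair was Irgm2 and Igtp (0.939), followed by Gbp4 and Gbp7 (1.32), and the furthest was Gbp2 and Irgm1 (5.81). Gbp4 and Gbp7 are on different chromosomes, while Irgm2 and Igtp are neighbours whose transcripts share sequence.

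Of 20 other interferon-inducible GTPase genes in the table, 13 were tested and 0 passed in edgeR, with 10 values above 0 and 3 below, and a median log2 fold change of 0.73. Over all 4088 genes tested, 2128 were above 0 and 1960 below, and the median was 0.06. Nothing is read from this difference, since the list was chosen with earlier results of these data known. Gbp5, Tgtp1, Gm5431, 9930111J21Rik1 and 9930111J21Rik2, all above 0, had at most 2.55 RPM in WT replicate 3. Tgtp1, which may hold reads of Tgtp2, had a log2 fold change of 2.24 ± 1.82. Ifi47, an immunity-related GTPase gene beside Tgtp2, had 379, 350 and 482 RPM in MOG KO and 211, 184 and 23.5 RPM in WT. All its MOG KO libraries lay above all WT libraries, as in 5.97% of all 4088 genes tested. Its log2 fold change was 1.53 ± 1.44 (adjusted p = 1 in edgeR).

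Some of these relatives were read in a single library, and Gbp2b, Mx1 and Gm1966 were named after their values had been seen. Gbp2b, a guanylate-binding protein gene of the chromosome 3 cluster, had 578, 1.83 and 1.45 RPM in MOG KO and 0.736, 0.671 and 0 RPM in WT. Gm12250, close to Igtp, had 0, 0.688 and 0.29 RPM in MOG KO and 160, 0 and 0 RPM in WT. Mx1, a dynamin-like antiviral GTPase gene, was listed at 0 in all MOG KO libraries and had 109, 0 and 0 RPM in WT. The copy of Gvin1 named Gm4070 has no counts under that symbol, so it was not analysed here. Gm1966, of the same family, had 115, 191 and 289 RPM in MOG KO and 6.99, 333 and 802 RPM in WT. Like Gvin1, Gm1966 was highest in WT replicate 3. Its highest MOG KO value, however, was in replicate 3, where Gvin1 was lowest.

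**Figure D4:**
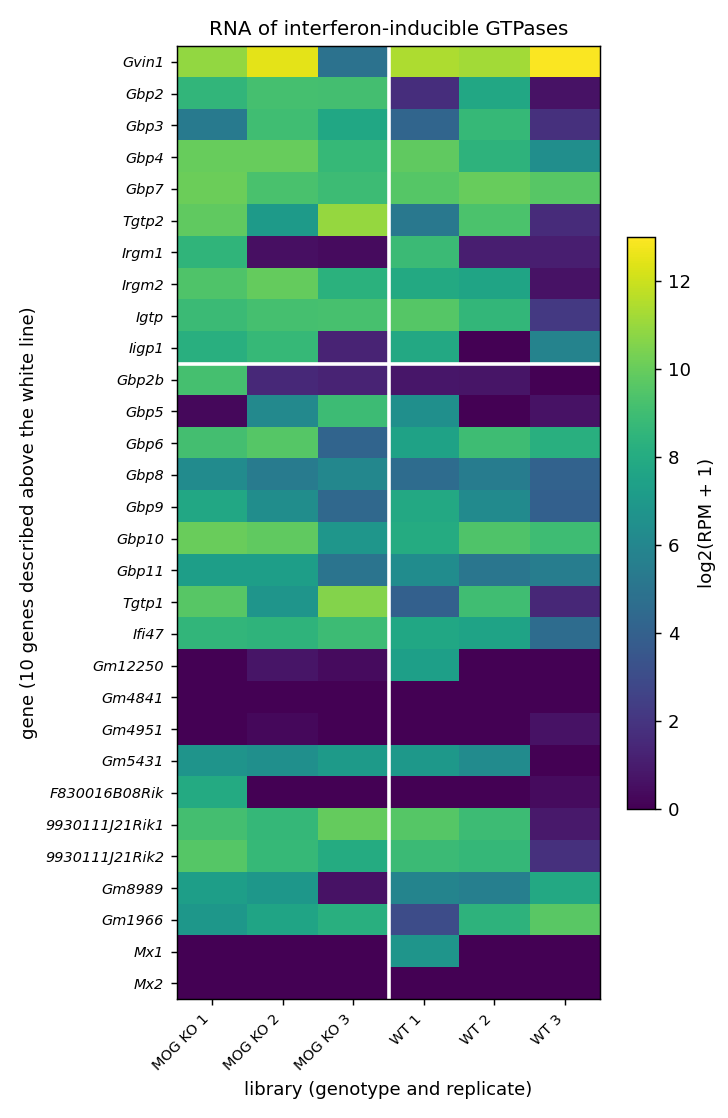
RNA of the 10 genes (above the white line) and of 20 other interferon-inducible GTPase genes (under it) in each library, as log2(RPM + 1) from 0 (dark) to 13 (yellow), with MOG KO libraries left of WT libraries. Gvin1 is brightest in WT replicate 3 and dim in MOG KO replicate 3, and Tgtp1 follows Tgtp2.

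Of the genes of the gamma interferon ligand and receptor, the chain Ifngr1 was present in every library and the ligand gene in none. Ifng had 0 counts in all 6 libraries, which allows up to 0.671 to 1.1 RPM. Ifngr1, the ligand-binding receptor chain, had 455, 581 and 496 RPM in MOG KO and 594, 348 and 411 RPM in WT. Ifngr2, the other chain, had 1.16, 1.83 and 2.32 RPM in MOG KO and 208, 1.57 and 1.98 RPM in WT, so it was present in 1 library. These 3 genes were named after their values had been seen.

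Among 10 genes of the gamma interferon receptor and its signalling, 6 were tested and 0 passed in edgeR, with 3 above 0, 3 below and a median of 0.02. Jak2, a kinase of the receptor, had 9.24, 0.917 and 420 RPM in MOG KO and 607, 160 and 79.6 RPM in WT (log2 fold change -0.97 ± 2.22, adjusted p = 1 in edgeR). Socs1, an inhibitor of the pathway, had 0, 216 and 190 RPM in MOG KO and 97.1, 101 and 0.283 RPM in WT (1.07 ± 2.7, adjusted p = 1 in edgeR). Each was under 1 RPM in at least 1 library and present in at least 1 library of each genotype.

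Among 7 genes of the type I interferon receptor and its signalling, all tested in edgeR, 0 passed there, with 4 above 0, 3 below and a median of 0.87. DESeq2 called 1 of them, Usp18. It was the 1 gene called of the 43 listed genes that DESeq2 adjusted, where 745 of all 4648 adjusted (16%) were called. Nothing is read from this call. Stat2, a subunit of the factor that binds response elements, had 456, 777 and 0.58 RPM in MOG KO and 9.2, 21 and 0.283 RPM in WT (log2 fold change 5.34 ± 2.72, adjusted p = 1 in edgeR). Usp18, an inhibitor of the receptor, had 0 counts in all MOG KO libraries and 242, 215 and 27.8 RPM in WT (adjusted p = 0.602 in edgeR). For Usp18 all MOG KO libraries lay under all WT libraries, as in 4.57% of all 4088 genes tested. With Usp18 set to the bound that 3 counts over the MOG KO group allow, the median stayed at 0.87. This outcome was fixed, since Usp18 lies below the median either way.

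Other targets of gamma interferon, mostly genes of antigen processing, counted 17, of which 13 were tested and 0 passed in edgeR, with 5 above 0, 8 below and a median of -0.14. Cd274, the gene of the inhibitory ligand PD-L1, had 1.16, 94.2 and 0.58 RPM in MOG KO and 529, 401 and 120 RPM in WT (log2 fold change -3.44 ± 2.35, adjusted p = 1 in edgeR). Stat3, a signalling factor of several cytokines, had 0.231, 105 and 201 RPM in MOG KO and 741, 332 and 680 RPM in WT (-2.56 ± 1.79, adjusted p = 1 in edgeR). For both genes all MOG KO libraries lay under all WT libraries, as in 4.57% of all 4088 genes tested. Both were named for the smallest p of the list, which favours such an order. Nlrc5, Tap1, Tap2, Tapbp, Psmb8, Psme1 and B2m were present in all 6 libraries. Their log2 fold changes lay between -0.34 and 0.09, with SE of 0.475 to 1.48.

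Myeloid and B cells also express these GTPases. Of their markers with values, Cd68, Cd79b and Ms4a1 were present in some libraries and the others in none. The 5 macrophage and dendritic cell markers in the table summed to 6.24 to 194 RPM in MOG KO and 4.92 to 19.1 RPM in WT. The high value was Cd68 in MOG KO replicate 2 (188 RPM), and the other markers Lyz2, Csf1r, Itgax and Flt3 reached at most 9.57 RPM. The 5 B cell markers summed to 0 to 131 RPM in MOG KO and 2.21 to 206 RPM in WT. The high values were Cd79b (130 RPM in MOG KO replicate 2, 205 RPM in WT replicate 2) and Ms4a1 (87.3 RPM in WT replicate 3). Cd79a was listed at 0 throughout. The 5 markers of stromal and endothelial cells summed to 28.4 to 461 RPM in MOG KO and 2.27 to 93.5 RPM in WT. Nearly all of this was Pecam1, 461 RPM in MOG KO replicate 1, while Pdpn was listed at 0 and Cdh5 reached at most 0.29 RPM. The 5 erythroid markers summed to 20.6 to 67.5 RPM in MOG KO and 69.7 to 151 RPM in WT. Markers of cytotoxic T and NK cells reached at most 0.368 RPM in sum. The part of other cells in the GTPase values was not tested.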

How the data were processed

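RNA of 500 sorted cells per library was read as single reads of 100 bases after 15 cycles of PCR, per the labels' protocols. The deposited count table holds raw counts of reads in exons per gene and the deposited RPM table the same counts as RPM (reads-per-million). Rescaled counts matched the deposited RPM with differences under 1e-06. STAR 2.3.1, R 3.2.2 and mm10 are named per the submitters' processing notes. The sources used here do not give the gene models, the strand setting or the counting of reads with several matches.

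The main test was that of edgeR 4.0.16 on the counts, run in R 4.3.3 (filterByExpr by group, TMM, robust quasi-likelihood fit of genotype, Benjamini-Hochberg over 4088 genes, 17.2% of the table). The SE is the absolute log2 fold change over the root of the F statistic. Alternatives were DESeq2 1.42.0, its size factors in edgeR, limma-voom (limma 3.58.1), other filters, a replicate block and leaving out each library. On simulated counts of this comparison, 4-fold changes were recovered at 100% with low spread (4088 genes, 12 false calls). At the spread of these libraries (3854 genes, 0 false calls) the share was 0%, and 22% for 64-fold changes.

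The 10 genes and the lists were chosen with earlier results of these data known. Besides the 10, a list's genes past the threshold were named, or its 2 of smallest p, and copies or neighbours of the 10. Promoters are RefSeq windows on GRCm38.p6, positions are RefSeq and exon lengths and transcripts GENCODE M21, all on the assembly that mm10 names.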

Additional observations from a re-analysis of the deposited data

How the results depend on the processing

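Of 12 alternatives, 11 gave 0 genes past the threshold over the whole table and 0 among the listed genes. DESeq2 gave 745 (271 higher and 474 lower in MOG KO), of which 1 is a listed gene, Usp18, and 0 are among the 10 GTPases. The cause was not tested. Leaving out each library in turn gave 0 to 0 genes for both counts, and the fit with a replicate block also gave 0. Deviations of same-numbered MOG KO and WT libraries from their group means correlated at -0.0234, -0.00326 and -0.0176 over 4088 genes. Since 8.9% of genes present anywhere were present in all 6 libraries, these values cannot tell whether the replicate numbers pair the samples. With the block, the log2 fold change of Iigp1 was 0.37, of Gbp2 6.68 and of Igtp 1.52.

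Of 110 fold changes of the 9 tested GTPases under an alternative, 105 moved by less than the spread between replicates and 5 by more, those of Gbp2, Gbp3 and Tgtp2. That spread, the SD within groups of log2(RPM + 1), is wide for genes near absent in some libraries. The count of 105 is therefore no measure of stability. All values of Irgm2, from 1.2 to 4.22, and of Gvin1, from -2.31 to 0.05, were within it. Signs changed for Gvin1 and Igtp without WT replicate 3 and for Gbp3 without MOG KO replicate 2, and for none of the 9 under any other alternative run. Presence counts were 55 of 60 at 1 RPM and 44 at 50 RPM, against 48 at 10 RPM. The sum of Gvin1 with Gm4070 was not run, because the deposited counts list no gene under the symbol Gm4070. How far reads of Gm4070 enter the Gvin1 values was not tested. With 3 libraries a group and spread of this size, 0% of simulated 4-fold and 22% of simulated 64-fold changes were recovered. Even very large differences could thus be missed.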

Other observations

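Genes that work with these GTPases differed in how evenly they were read. Of 11 autophagy conjugation factors, which place immunity-related GTPases and guanylate-binding proteins on vacuoles, 7 were tested and 0 passed in edgeR, with 3 log2 fold changes above 0, 4 below and a median of -0.09. Gabarap had 75.9 to 194 RPM in MOG KO and 107 to 167 RPM in WT, and Map1lc3b had 160 to 280 RPM in MOG KO and 243 to 545 RPM in WT. These genes of proteins that become attached to membranes were present in all 6 libraries, and the other 9 in 0 to 5. Atg16l1, part of the enzyme complex that attaches LC3 proteins to membranes, had 679, 448 and 577 RPM in MOG KO and 562, 4.7 and 4.82 RPM in WT (log2 fold change 1.56 ± 1.78, adjusted p = 1 in edgeR). All but 1 of the WT libraries were under 5 RPM, and that library lay within the MOG KO range. Atg5, of the same complex, had 0.231, 8.25 and 549 RPM in MOG KO and 6.99, 0 and 83.9 RPM in WT (2.47 ± 3.11, adjusted p = 1 in edgeR).

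Of 6 inflammasome factors, which sense or follow the release of bacterial products by guanylate-binding proteins, 2 were tested and 0 passed in edgeR. Gsdmd, which encodes a pore protein of dying cells, had 276, 282 and 152 RPM in MOG KO and 1.47, 240 and 1.13 RPM in WT (log2 fold change 1.57 ± 2.28, adjusted p = 1 in edgeR). Like Gbp2 it was present in all MOG KO libraries and, among WT libraries, in replicate 2. Pycard, an adaptor protein gene, had 137, 80 and 244 RPM in MOG KO and 209, 171 and 154 RPM in WT (-0.27 ± 1.6, adjusted p = 1 in edgeR). Aim2, Casp1 and Casp4 were each present in 1 WT library, and Nlrp3 was listed at 0 in all 6 libraries. The genes named among these factors were chosen after their values had been seen.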
